A study of Saccharomyces cerevisiae with 2 samples.

Results

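The 39 genes described here encode the ribosomal proteins L21 to L43 of the large (60S) subunit of budding yeast, Saccharomyces cerevisiae. They were taken by their systematic gene identifiers from RPL21A to RPL43B, and all 39 were found among the 4579 genes of the deposited codon table. They fall into 23 families: 16 have an A and a B copy in the genome and 7 (RPL25, RPL28, RPL29, RPL30, RPL32, RPL38 and RPL39) have a single gene. The study sequenced ribosome footprints, which are the mRNA fragments a ribosome shields from nuclease, and total RNA of strain yJC2229, with 1 library of each kind. The culture, kept at 24 °C in YPD of pH 6.5 with 2% glucose, was harvested in mid-log growth without pretreatment. Cycloheximide, which stops elongating ribosomes, was present when the cells were lysed, and footprints came from 80S ribosomes of a sucrose gradient. The series title gives the prediction of elongation rate from such data as the aim. With 1 library per kind there is no replicate check, no p-value was computed, and every interval below covers counting error only.

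Ribosomal proteins are made in the cytoplasm, carried into the nucleus and built into the subunit, mostly in a single copy per ribosome. Those described here are small and rich in the basic residues lysine and arginine, which contact ribosomal RNA. Growing yeast spends a large part of its mRNA on them. Several ring the mouth of the tunnel through which the new protein chain leaves, others sit on the face toward the small subunit, and RPL40A and RPL40B encode L40 fused to ubiquitin, which is cut off after synthesis. Many of these families kept 2 gene copies after an ancient doubling of the yeast genome, and many of the genes carry introns.

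The footprint library held 3756929 footprints over the listed genes. The authors' abundance column, headed FPKM but holding CPM-like values not divided by length, corresponds to 21353772 reads in the listed genes, and its header does not say which library it came from. A gene's footprint to read ratio sets its share of the footprints over its share of these reads, and a ratio of 1 is the level of the pooled genes. It is a translational efficiency only if the column came from the total RNA library. The genes compared, called genes tested below, are the 2939 with at least 100 footprints and 100 reads. All 39 genes passed, with between 822 and 33172 footprints and between 2227 and 66238 reads. Where a pair of copies has nearly the same sequence, how the authors counted reads that match both is not stated, so the division between copies is uncertain.

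The 39 genes took 8.55% of all footprints and 3.56% of the reads, from 0.194% of the codons in the table. They held 72.2 footprints per codon, against 1.50 in the rest of the listed genes. RPL32 had the most footprints (33172, with 66238 reads), followed by RPL28 (19076 footprints, 59865 reads) and RPL25 (18780 footprints, 41715 reads). Next came RPL30 with 13208 footprints and 33783 reads, RPL39 with 12686 footprints and 19331 reads, and RPL31A with 12427 footprints and 21663 reads. All of these but RPL31A are genes without a second copy. RPL28 is also known as CYH2, since changes in its protein make yeast resistant to cycloheximide, and L25 is the docking site of the signal recognition particle at the tunnel exit. L30 binds its own transcript and blocks its splicing. Per codon, RPL32 (253 footprints) ranked 2 and RPL39 (244) ranked 3 among all listed genes, and RPL29 (199) ranked 8.

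**Figure D1:**
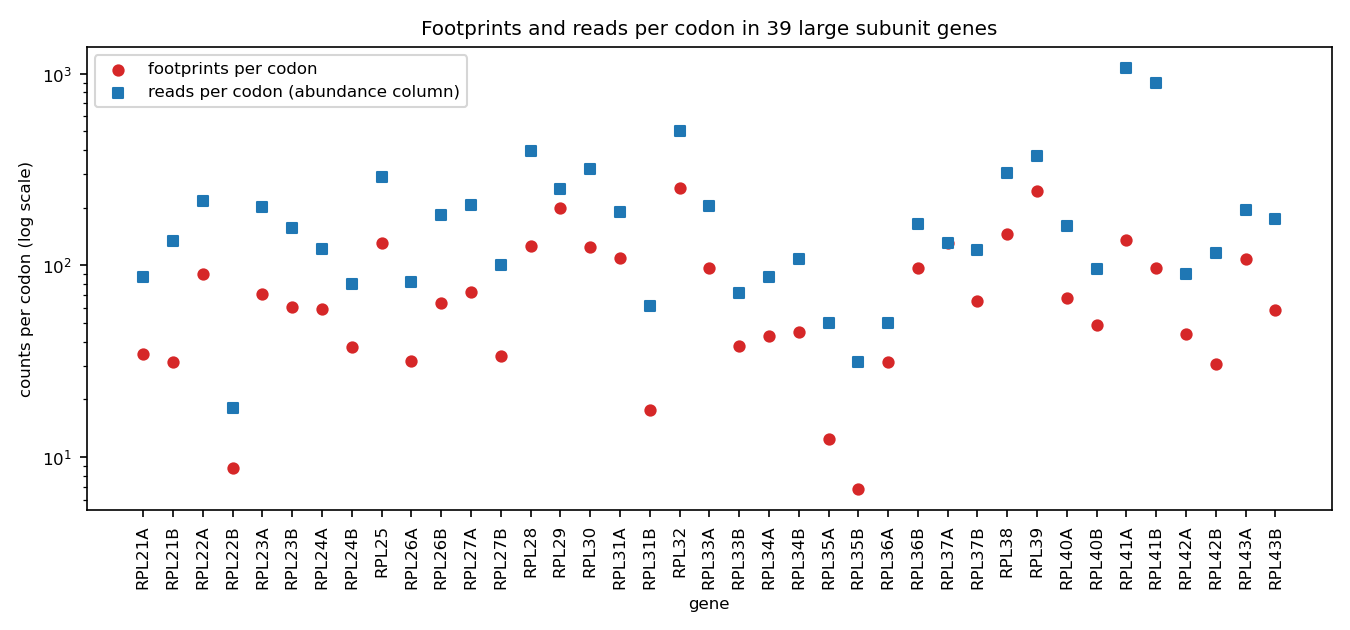
Footprints per codon (circles) and reads per codon of the authors' abundance column (squares) for the 39 genes, on a log scale. RPL41A and RPL41B stand highest in reads per codon (1071 and 892), RPL35B is lowest in footprints per codon (6.79), and the symbols of RPL37A overlap (131 footprints and 132 reads per codon).

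Since most of these proteins are present once in each ribosome, the copies of a family were also added up. Over the 23 families the summed footprints per codon had a median of 127, with the middle 50% of families between 97.9 and 156. RPL32 (253), RPL39 (244), RPL41 (233), RPL29 (199) and RPL37 (197) were the highest families. RPL35 was the lowest at 19.2 footprints per codon, and the next lowest were RPL21 (65.9), RPL42 (74.1) and RPL34 (87.9). The highest family exceeded the lowest 13.2-fold. Reads per codon of the families ran from 81.6 for RPL35 to 1962 for RPL41, with a median of 266. The spread over families, as the SD of log2 values, was 0.78 for footprints per codon and 0.79 for reads per codon. Without RPL35 and RPL41, left out after their values were seen, these SDs were 0.51 and 0.36. The families of RPL1 to RPL20 had a lower median, at 65.7 footprints and 226 reads per codon over 20 families. The small subunit families lay between in footprints, with 101 footprints and 282 reads per codon over 32 families.

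RPL35 and RPL41 are the families whose copies are most alike. The number of codons that would have to change for both copies to have the same codon composition, a lower limit on their differences, was 3 for RPL35 and 1 for RPL41, against 7 to 42.5 for the other 14 pairs. L35 lies beside the tunnel exit, where it contacts the signal recognition particle and the translocon. RPL35A had 1501 footprints and 6080 reads, and RPL35B had 822 footprints and 3797 reads. Each copy held 0 footprints on its 11 AGA, 6 ACC, 4 CCA, 4 GTC, 3 TCC and 2 TTC codons, among others. The cause of these zeros, and their part in the low level of RPL35, was not tested. RPL1, the other pair of ribosomal protein genes with so few differing codons (2), had 21.5 footprints and 110 reads per codon over both copies. Low values were also found in RPS6, at 12.6 footprints per codon, and RPL4, at 14.4. They have 6 differing of 237 codons and 8 of 363, against 3 of 121 in RPL35. Relative to length these pairs are thus about as alike as RPL35. RPL41 had the most reads per codon of all 23 families. The part that reads matching both copies play in these values was not tested.

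The first comparison asked how many footprints each of the 39 genes held for its reads. Of the 39 genes, 37 had a ratio above 1 and 26 had a ratio of 2 or more, and 0 had a ratio of 0.5 or less. Among all genes tested 12.5% reached a ratio of 2, and 21.1% lay at 0.5 or less. The median log2 ratio was 1.26 in the 39 genes and -0.14 in all genes tested. Short genes had high ratios throughout the table, however. Among the 385 other genes tested with 26 to 162 codons, the span of the 39, 54.8% reached a ratio of 2 and 0.26% lay at 0.5 or less. Their median log2 ratio was 1.06, and 376 of the 385 lay above the median of all genes tested, as did 37 of the 39. The 26 of 39 genes are thus to be read against 54.8% rather than 12.5%. Of the genes at 2 or more the lowest was RPL26A at 2.18 (4084 footprints, 10628 reads), and of those under 2 the highest was RPL27A at 1.999 (10021 footprints, 28493 reads). Of the 39 genes, 28 lay above a smooth trend of the log2 ratio on coding length (LOWESS), as did 51.2% of all genes tested, and their median difference from it was 0.25.

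**Figure D2:**
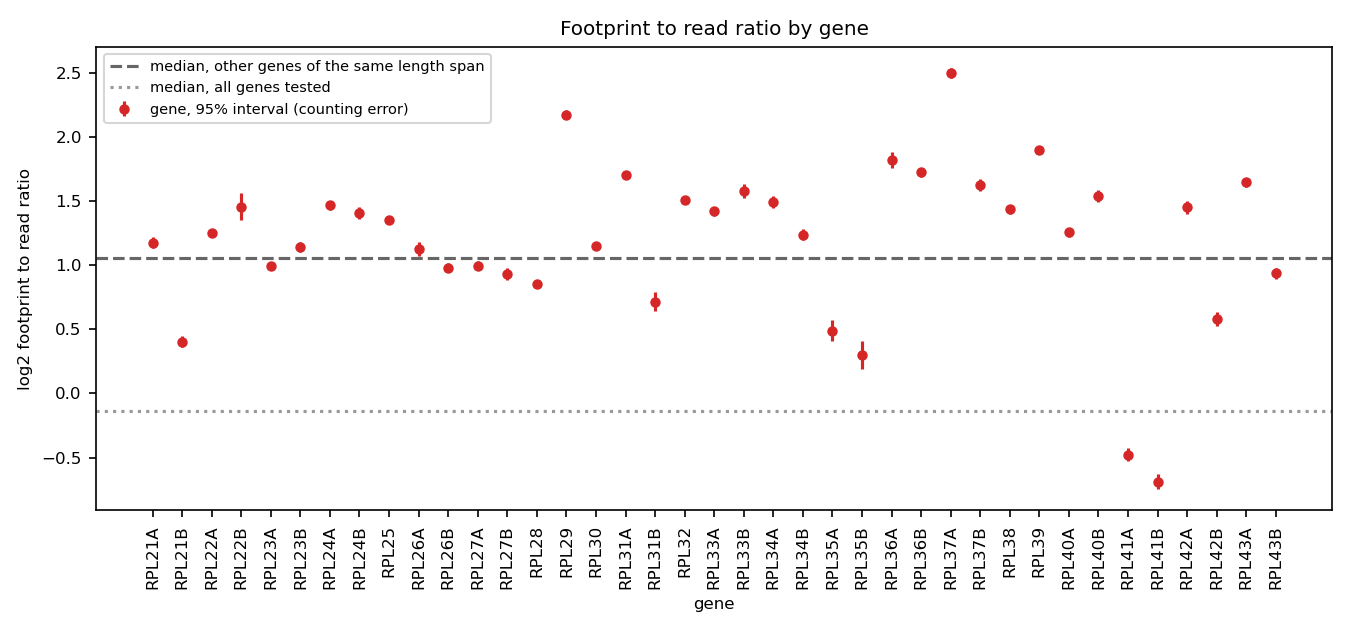
Log2 footprint to read ratio of each of the 39 genes with its 95% interval for counting error, beside the medians of other genes of the same length span (dashed, 1.06) and of all genes tested (dotted, -0.14). RPL37A is highest at 2.50, and RPL41A (-0.48) and RPL41B (-0.69) are the genes below 0.

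The highest ratios belonged to short members. RPL37A (YLR185W, chromosome XII, 522663 to 523288, sacCer3) had 11824 footprints and 11844 reads, a ratio of 5.67 (95% interval 5.53 to 5.82). It ranked 3 among all genes tested. RPL29 (YFR032C-A, chromosome VI, 223258 to 223437) encodes a protein of 59 residues and had 11951 footprints and 15020 reads, a ratio of 4.52 (4.41 to 4.63). RPL39, whose protein of 51 residues lines the exit tunnel, had 12686 footprints and 19331 reads, a ratio of 3.73 (3.65 to 3.81). These 3 genes lay 1.30, 0.79 and 0.45 above the length trend on the log2 scale. RPL36A, with 3186 footprints and 5122 reads, followed with a ratio of 3.54, then RPL36B (9832 footprints, 16865 reads) with 3.31. RPL31A had a ratio of 3.26. L31 stands at the tunnel exit, where it contacts the ribosome-associated chaperone complex.

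The lowest ratios belonged to RPL41A and RPL41B, which encode a protein of 25 residues, the shortest of the ribosome, 68% of them lysine or arginine. L41 forms a bridge to the small subunit. RPL41A (YDL184C, chromosome IV, 130407 to 130484) had 3518 footprints and 27839 reads, a ratio of 0.718 (0.693 to 0.744). RPL41B (YDL133C-A, chromosome IV, 221724 to 221801) had 2531 footprints and 23181 reads, a ratio of 0.621 (0.595 to 0.647). In reads per codon these genes ranked 1 and 4 of all listed genes, at 1071 and 892, and in footprints per codon 17 and 40, at 135 and 97.3. They lay 2.19 and 2.40 below the length trend on the log2 scale. Among all genes tested 2.35% lay 1 or more below it, and the trend at this length is poorly set, since no gene tested is shorter. Had the abundance column been divided by length, as its header says, both would have a ratio above 1 (log2 4.05 for RPL41A and 3.84 for RPL41B). Next lowest were RPL35B at 1.23 (1.14 to 1.33), RPL21B (5082 footprints, 21823 reads) at 1.32 (1.28 to 1.36), RPL35A at 1.40 (1.33 to 1.49) and RPL42B (3286 footprints, 12489 reads) at 1.50 (1.44 to 1.55).

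**Figure D3:**
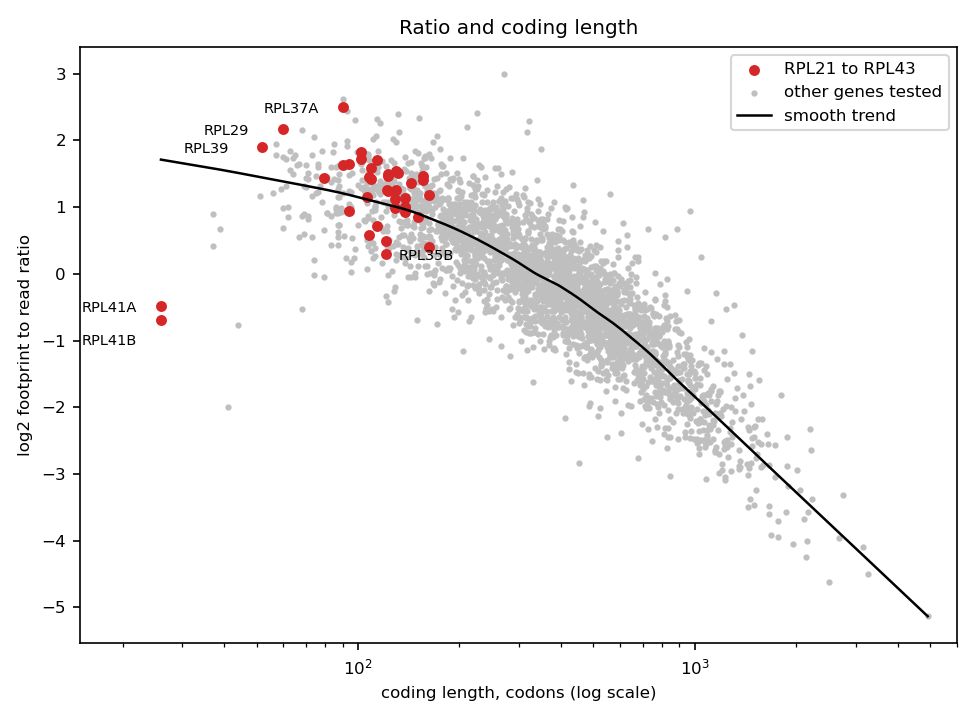
Log2 footprint to read ratio against coding length in codons (log scale) for the 39 genes (red), the other 2900 genes tested (grey) and the smooth trend through all of them (line). Of the 39, 28 lie above the trend, with a median difference from it of 0.25 over all 39. RPL37A lies furthest above it, by 1.30, and RPL41A and RPL41B furthest below, by 2.19 and 2.40.

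Spearman's rho between ratio and coding length was -0.26 within the 39 genes, and -0.47 over the 37 genes without RPL41A and RPL41B. Over all genes tested it was -0.85. Genes are not replicates, and all share the same footprint library and abundance column. By place in the subunit, the 11 tunnel exit genes (RPL22, RPL25, RPL26, RPL31, RPL35, RPL38 and RPL39) had a median log2 ratio of 1.25, with 7 at a ratio of 2 or more. They ran from 0.30 for RPL35B to 1.90 for RPL39. The 7 genes of the bridges and the intersubunit face (RPL23, RPL24, RPL30 and RPL41) had a median of 1.14, with 4 at 2 or more. There RPL24A, whose protein takes the place of an assembly factor late in subunit maturation, was highest at 1.47. The ubiquitin fusion genes RPL40A and RPL40B stood at 1.26 and 1.54. The other ubiquitin genes tested were lower, with RPS31, the fusion to a small subunit protein, at 0.53 and the polyubiquitin gene UBI4 at 0.18. The remaining 19 genes had a median of 1.45, with 13 at 2 or more, and ran from 0.40 for RPL21B to 2.50 for RPL37A.

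Of the 39 genes, 32 span more bases than their coding sequence, which in this annotation without untranslated ends points to an intron. This holds for 4.96% of all matched genes and for 17.7% of the other genes tested of the same length span. The 7 exceptions are RPL24A, RPL24B, RPL29, RPL32, RPL38, RPL41A and RPL41B. The 32 genes had a median log2 ratio of 1.25 and ran from 0.30 to 2.50, and the 7 had a median of 1.44 and ran from -0.69 to 2.18. The ranges overlap over most of their length, and the 7 are also shorter, with a median of 79 codons against 121.5 in the 32.

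Other parts of the ribosome and its supply were set beside them. RPL1 to RPL20, with a median of 200 codons against 121 in the 39 genes, had a median log2 ratio of 0.87 and 11 of 37 genes at a ratio of 2 or more. They ran from RPL3 at -0.17 to RPL11B at 1.87. Small subunit proteins (median 144 codons) had a median of 1.01 and 31 of 55 genes at 2 or more, from RPS28B at -0.53 to RPS29B at 1.95. Measured from the length trend, the medians were 0.25 in the 39 genes, 0.26 in RPL1 to RPL20 and 0.11 in the small subunit. The stalk proteins had a median of 1.18, with 3 of 5 at 2 or more, from RPP0 at 0.19 to RPP1B at 1.79. Of 12 factors that handle or join these proteins before assembly, 0 reached a ratio of 2 and 3 lay at 0.5 or less, with a median log2 ratio of 0.11. LOC1, which with PUF6 loads L43 onto the precursor, was highest at 0.89, and the GTPase NOG1 was lowest at -1.98. Of the regulators of ribosomal protein genes, HMO1 stood at 0.39, RAP1 at -0.50 and SFP1 at -1.53. FHL1 (75 footprints, 1747 reads) and IFH1 (62 footprints, 1535 reads) had under 100 footprints, and CRF1 was not analysed here. These lists differ in length, so their order in the ratio was not separated from it.

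The second comparison set the A copy of each pair against the B copy. Copy A had more footprints in 13 of 16 pairs and more reads in 11. In the 40 other pairs of ribosomal protein genes these counts were 25 and 24. The largest imbalance was in RPL22, a tunnel exit protein: RPL22A had 11018 footprints and 26323 reads, against 1078 footprints and 2227 reads for RPL22B. RPL22A thus supplied 91.1% of the pair's footprints (95% exact binomial interval 90.6 to 91.6) and 92.2% of its reads (91.9 to 92.5). RPL31A supplied 86.0% of footprints and 75.7% of reads. In the opposite direction, RPL36A supplied 24.5% of footprints and 23.3% of reads and RPL26A 33.1% of footprints and 30.9% of reads. Footprints differed 2-fold or more between copies in 7 of the 16 pairs, against 40% of 40 other pairs of ribosomal protein genes.

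The copies of a pair mostly had alike footprints per read. These differed 2-fold or more in 0 of 16 pairs, against 7.5% of the other pairs, and 1.5-fold or more in 5, against 12.5%. The 5 were RPL31, RPL37, RPL42, RPL21 and RPL43, and copy A was higher in each. RPL31A had 12427 footprints and 21663 reads, against 2016 footprints and 6971 reads for RPL31B. Footprints per read were 1.98 times as high in RPL31A (95% interval 1.88 to 2.09). RPL37A had 11824 footprints and 11844 reads, against 5872 footprints and 10812 reads for RPL37B, or 1.84 times the footprints per read (1.76 to 1.91). In RPL37 the copies thus had nearly the same number of reads and differed in footprints. RPL42A had 4712 footprints and 9771 reads, against 3286 footprints and 12489 reads for RPL42B, a fold of 1.83 (1.74 to 1.93). RPL21A had 5597 footprints and 14054 reads, against 5082 footprints and 21823 reads for RPL21B, a fold of 1.71 (1.64 to 1.79). For RPL42 and RPL21 footprints and reads differed in direction, with more footprints and fewer reads in copy A. RPL43A, with 10137 footprints and 18355 reads, against 5535 footprints and 16423 reads for RPL43B, had a fold of 1.64 (1.58 to 1.70). Counted only on codon types of the same number in both copies, 3 of the pairs passed 2-fold: RPL31 at 2.16, RPL42 at 2.11 and RPL37 at 2.08. The other pairs were not counted in this way, so these 3 have no share to be read against.

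The smallest differences were those of RPL24, RPL27 and RPL36. RPL24A had 9225 footprints and 18926 reads, against 5859 footprints and 12522 reads for RPL24B, a fold in footprints per read of 1.04 (1.00 to 1.08). RPL27A had 10021 footprints and 28493 reads, against 4665 footprints and 13890 reads for RPL27B, a fold of 1.05 (1.01 to 1.09). RPL36 stood at 1.07 (1.01 to 1.12). In these 3 pairs copies with 1.51, 2.05 and 0.304 times the reads had 1.57, 2.15 and 0.324 times the footprints. The median fold of the larger over the smaller copy was 1.16 over the 16 pairs and 1.17 over the other 40. Copy B was higher in footprints per read in 4 of the 16 pairs, by name RPL40, RPL22, RPL33 and RPL23. Copy A was thus higher in 12 of the 16, against 20 of the other 40.

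**Figure D4:**
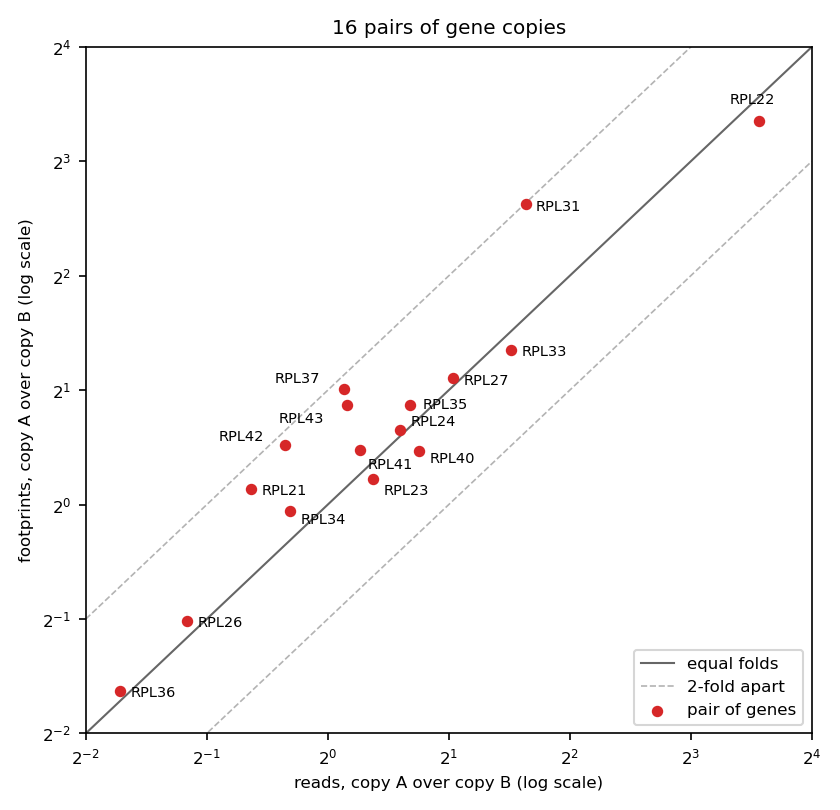
Fold of copy A over copy B in footprints against the same fold in reads, both on log scales, for the 16 pairs. Pairs on the solid line have equal footprints per read, all 16 lie within the dashed lines that mark a 2-fold difference, and RPL31 (1.98), RPL37 (1.84) and RPL42 (1.83) lie nearest to the upper of these.

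Codon types that both copies have in the same number were also compared within pairs. No sequence was at hand, so such codons need not stand at the same places in both copies. In RPL37 the largest contrast was at the only CCT, a proline codon, with 1090 footprints in RPL37A against 4 in RPL37B. At the 8 AGA codons, for arginine, RPL37A had 2902 footprints against 1455 in RPL37B, and at the 4 AAC codons, for asparagine, 187 against 178. The excess of RPL37A was thus not even over its codons: over the 11 sense codon types with at least 50 footprints in each copy it ran from 1.03-fold at ATG to 4.61-fold at CCA. The stop codon TAA went the other way, with 76 footprints in RPL37A against 96 in RPL37B. So did some sense codons under this limit, namely TGG (37 against 52), GCC (37 against 45) and CAA (27 against 32). Under the same limit CGT (95 against 43) and TTT (20 against 8), like CCT, were higher in RPL37A. Without CCT, left out after its values were seen, footprints per read were still 1.67 times as high in RPL37A. In RPL31 the 5 such sense codon types ran from 4.17-fold at TTG to 6.42-fold at TAC. All lay above the pair's fold in reads, 3.11. Under the limit, ATG (126 against 14), CAA (215 against 39), GAT (251 against 24) and TCT (40 against 1) lay above it too. CGT (58 against 46) and TGG (18 against 10) lay below it, though still higher in RPL31A. In RPL21 the types with at least 50 footprints in each copy had a median of 1.02-fold. There RPL21A had 545 footprints against 546 in RPL21B at the 14 AAG codons, and 428 against 426 at the 3 GAC codons. Of the 10 types compared in RPL21, 4 were within 10% of each other, while reads stood at 0.644. How reads matching both RPL21 copies were counted is not stated, and its part in these values was not tested. In RPL42 the TAT codon had 23 footprints in RPL42A against 126 in RPL42B, in the opposite direction to the pair as a whole.

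The third comparison asked which codons the 39 genes use and how footprints were spread over them. A codon's value sets its footprints per occurrence over those of the average codon of its gene, which has a value of 1. Lysine and arginine made up 23.0% of residues in the 39 genes and 11.9% in the rest of the listed genes, from 13.9% in RPL22B to 68% in the RPL41 genes. The lysine codon AAG alone made up 11.3% of the 4448 codons, against 3.17% in the rest. The arginine codon AGA followed with 7.26% against 2.15%, then glycine GGT with 6.25% against 2.36%, alanine GCT with 5.89% against 2.07% and leucine TTG with 4.95% against 2.76%. The 8 most used codons covered 48.4% of positions in the 39 genes and 22.2% in the rest. Not used at all were 6 codons, namely leucine CTG and CTC, arginine CGA and CGC, threonine ACG and the stop codon TAG. CCG and CCC for proline, CAG for glutamine, TCG for serine and GGG for glycine occurred once each.

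Averaged over each gene, the codons of the 39 genes mostly had low values in other genes. This did not hold for each common codon. Of the 8 most used, AAG (0.794), GTT (0.647), GAA (0.796) and CAA (0.620) were low in the other genes tested. AGA (0.993), GGT (0.975), GCT (1.01) and TTG (1.01) lay near 1 there. When each codon was given its value in the other genes tested, the mean over the codons of a gene had a median of 0.882 in the 39 genes, from 0.855 for RPL42B to 1.03 for RPL41A. In the other genes tested the median was 0.994, with 10% of genes below 0.922. Within the 39 genes themselves, AAG had a value of 0.891 (0.879 to 0.903), against 0.794 (0.780 to 0.808) in the other genes tested, and it received 37717 footprints. AGA had 1.25 (1.23 to 1.27), against 0.993 (0.973 to 1.01), with 32839 footprints. The order of codons was much alike. Over the 27 codon types with at least 50 occurrences in the 39 genes, their values in the 39 and in the other genes had a Spearman rho of 0.81, with GTT (0.691 against 0.647) and CAA (0.658 against 0.620) low in both and CCA (1.35 against 1.19) high in both. Of the 27 types, 22 had a higher value in the 39 genes. This count, like the codon values above, depends on the gene mean as the mark. With footprints pooled over genes, 5 of the 27 were higher in the 39 genes. Aspartate GAC had the largest excess of the 27, at 1.34 (1.30 to 1.38) against 0.965 (0.946 to 0.986), and its value lay between 1.08 and 1.46 as each family was left out in turn. Lower than elsewhere were glycine GGT (0.835 against 0.975), cysteine TGT (0.571 against 0.715) and methionine ATG (0.653 against 0.850). Histidine CAC and isoleucine ATC were lower too. The 77 ATG codons of the 39 genes include every start codon. In the 20 genes whose only ATG is the start codon, its mean value was 0.0403. The lower ATG value was thus not separated from the share of start codons.

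Copies of a pair had related codon values. Over codon types of the same number in both copies, the Spearman rho between copies had a median of 0.65 over the 16 pairs, from 0.45 in RPL31 (11 types) to 0.99 in RPL41 (10 types). It was 0.94 in RPL35 over 22 types and 0.91 in RPL24 over 20. Many of the types compared in RPL35 and RPL41 held 0 footprints in both copies, such as AGA in RPL35 and CGG in RPL41. The high rho of these pairs thus rests in part on shared zeros, and rho without such types was not computed. The other 40 pairs had a median of 0.75. Copies share most of their sequence, and reads that match both could enter either, which was not tested.

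A codon that a gene has once marks a single place. In the 39 genes there were 369 such places, stop codons included, and 13 held at least 5 times the gene's mean codon and at least 20 footprints. This is 3.52%, against 2.49% of 21574 such places in all genes tested. Among genes with at least 4 footprints per codon, in which 5 times the mean reaches 20 footprints, it was 5.97%. Of the 13, 7 were stop codons and 6 sense codons, and they lay in 11 genes. After the stop codons of RPL42B, RPL42A and RPL31A, the highest was the CCT of RPL37A, with 1090 footprints and a value of 8.30 (exact Poisson interval 7.81 to 8.80). The CTA of RPL25, for leucine, held 800 footprints (6.13), the GCC of RPL42B, for alanine, 182 (5.98), the GAC of RPL30 651 (5.22), the TGC of RPL42A, for cysteine, 223 (5.11) and the GGC of RPL23A, for glycine, 360 (5.08). Just below the limit was the GCC of RPL26B with 319 footprints (4.98). The rare codons present were mixed. The only CCG, in RPL22B, and the 2 CGG held 0 footprints, where other genes had values of 4.81 and 2.57. The CGG lie in RPL41A and RPL41B, which are nearly the same, so they are hardly separate places. ATA (4.71 against 1.53) and CCC (3.98 against 2.28) were high in the 39 genes. GCG (0.566 against 2.16) and TCG (0.204 against 1.42) were low.

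Stop codons, where a ribosome waits for release factors, ranged widely. RPL42B had 619 footprints on its TGA, 20.3 times its mean codon (18.8 to 22.0), and RPL42A had 780 on its TGA, 17.9 times (16.6 to 19.2). L42 lies at the exit site for transfer RNA, near where cycloheximide binds. In RPL42B the stop codon held 18.8% of all footprints, more than any other codon type. Both copies of RPL24 were high too, with 399 footprints (6.75) on the TAA of RPL24A and 219 (5.83) on that of RPL24B. RPL31A reached 8.82 with 962 footprints, but RPL31B 1.92 with 34. RPL28 (6.70) and RPL32 (5.10) completed the 7 genes at 5 or more. At the other end, RPL21A had 0 footprints on its stop codon and RPL21B 5, RPL26A had 5 and RPL26B 14, and RPL38 had 36, or 0.248 times its mean codon.

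**Figure D5:**
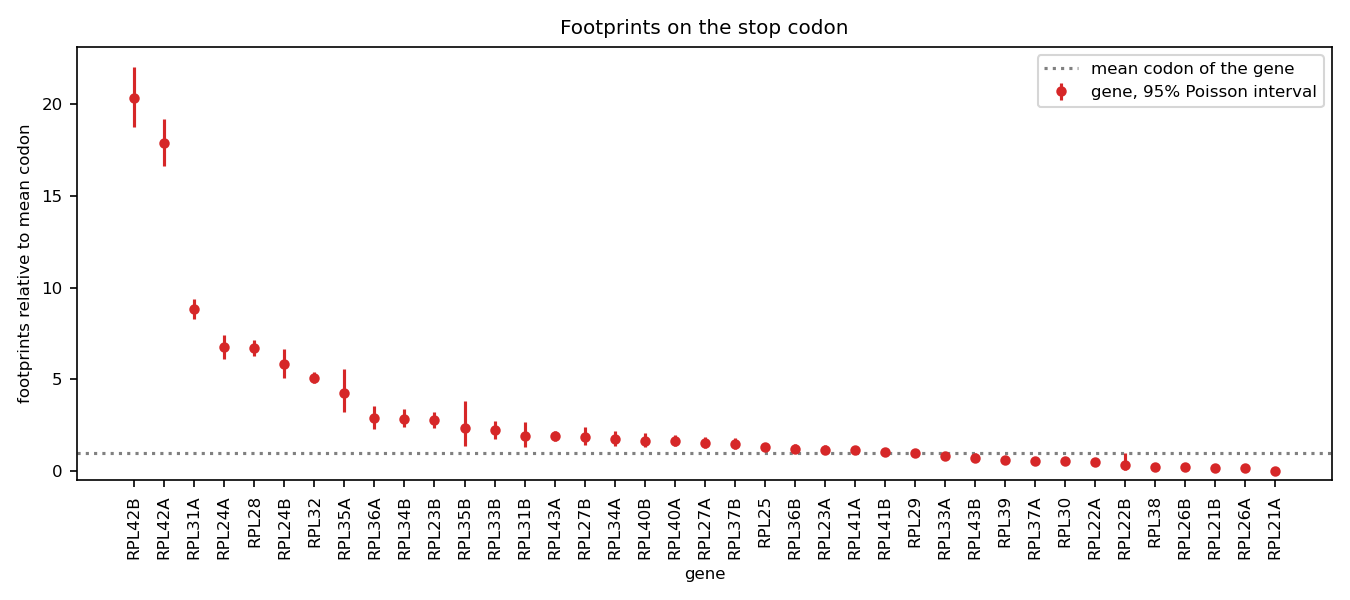
Footprints on the stop codon of each of the 39 genes, relative to the mean codon of the same gene (dotted line at 1), with 95% Poisson intervals. RPL42B (20.3) and RPL42A (17.9) stand apart from the others, which lie between 0 and 8.82.

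Over the 39 genes the stop codon had a mean value of 2.93 and a median of 1.54, with 27 (69.2%) above 1 and 1 (2.56%) at 0. Without RPL42A and RPL42B, left out after their values were seen, the mean was 2.06. In the other genes tested the mean was 4.52 and the median 1.70, with 57.5% above 1 and 35.4% at 0. In the 521 of them with 1000 or more footprints, the mean was 3.87 and the median 2.13, with 74.5% above 1 and 6.33% at 0. Of the 39 genes, 17.9% reached 5, against 26.6% of all genes tested. The 35 genes with TAA had a mean of 2.07, and the 4 with TGA (RPL40A, RPL42A, RPL42B and RPL43A) had 10.4, which rests on the RPL42 copies, since RPL40A and RPL43A stood at 1.64 and 1.90. In 20 genes the start codon is the only ATG. It held 0 footprints in 14 of them and 45 in all, with a mean value of 0.0403 and a highest value of 0.290 in RPL34B. In the 134 other genes tested with a single ATG the mean was 0.0585, and 80.6% of them held 0 footprints there. Among the 54 of these with 1000 or more footprints in all, 68.5% held 0 there, against 70% here.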

How the data were processed

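The series holds a footprint and a total RNA library, and no table of codon counts of the total RNA library was analysed here. Per the submitters' processing notes, cutadapt, Bowtie2, HISAT2, HTSeq and the sacCer3 build were used. Not given in the sources used here are their roles and versions, the ribosomal site counted, read lengths, strand, removal of duplicates, and what was done with reads matching several genes.

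The deposited footprint columns hold raw counts per gene and codon, per the file headers. The columns headed total hold the number of times each codon occurs. The deposited abundance column is headed FPKM, but its values behave as CPM: all are whole multiples, within 0.001 reads, of 0.0459 CPM, which gives 21771294 reads, 98.1% of them in the listed genes. It was turned into reads with that step and, with no library named, was given no sample. Reading it as divided by length was tried as an alternative. No column was left out.

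The 95% intervals are exact conditional binomial (Clopper-Pearson) for ratios, log-scale for folds between copies, gamma for codon values and exact Poisson for single places. They were checked on simulated data and cover counting error only, since amplified reads are not separate molecules. The trend on length is a LOWESS over 30% of the genes. Symbols and coordinates came from RefSeq R64, which matched 4578 of 4579 genes. Python 3.11.15, scipy 1.17.1 and statsmodels 0.14.6 were used.

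Members and lists were chosen with earlier results of these data known. Named in full were the 6 genes with the most footprints, the 6 highest and 6 lowest ratios, the 4 most and 3 least different pairs, the 6 highest single-codon places, and each list's extremes. Other genes and the codons were named after their values were seen. The family sums, the per-codon contrasts within pairs, the mean of a gene's codons at other genes' values, the 1.5-fold count and the comparison by gene span were added after seeing the data. No sequences are printed.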

Additional observations from a re-analysis of the deposited data

How the results depend on the processing

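No paired analysis was possible because each kind has 1 library, and for the same reason no library could be left out. The median log2 ratio of the 39 genes (1.26) was 1.39 with the median gene set to 1, 1.31 with a minimum of 1000 footprints, 1.30 without the top codon of each gene, 1.36 with copies summed, 1.42 without pairs of the same residue composition (used in place of the same protein), 1.36 without RPL41A and RPL41B, 3.61 with the abundance column taken as divided by length, and 0.25 with the length trend subtracted. Its difference from the other genes (1.41) was 1.73 with a minimum of 30, 1.77 with none, 1.02 with 1000 footprints, 1.51 with copies summed, 1.57 without pairs of the same residue composition, 1.51 without the RPL41 genes, 3.10 with division by length, 0.20 against genes of the same length span and 0.24 with the trend subtracted. A ratio of 2 was reached by 26 of the 39 genes, and by 31 with the median gene set to 1 (15.6% of other genes), by 39 with division by length (40.3%) and by 29 without stop codons. Division by length put RPL41A at 4.05 and RPL41B at 3.84. Subtracting the trend put RPL21B (-0.44), RPL26B (-0.027), RPL27B (-0.035), RPL28 (-0.045), RPL31B (-0.36), RPL35A (-0.56), RPL35B (-0.75), RPL42B (-0.53) and RPL43B (-0.25) below 0.

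On codon types of the same number in both copies, 3 pairs (RPL31, RPL37 and RPL42) differed 2-fold in footprints per read, against 0, while the same 5 pairs passed 1.5-fold in all settings. These settings were not run on the other pairs of ribosomal protein genes. The fold of A over B turned to 0.978 for RPL27 and 0.949 for RPL41 without the top codon, and to 1.19 for RPL22 and 0.909 for RPL26 on codons of the same number. Pooled without the gene mean, 5 of 27 codon types were higher in the 39 genes, with AAG at 1.04 against 1.47 and AGA at 1.41 against 1.74. AAG was 0.926 with copies summed, and AGA 1.28 with ATG and stop codons left out of the mean. At 10 times the mean codon, 2 places remained, against 13. The stop codon value was 1.54 as a median and 2.06 without RPL42A and RPL42B, and the single ATG was 0 as a median. The cause of these shifts was not tested. Settings without RPL41, RPL42 or CCT, without the most alike pairs, and with 4 footprints per codon were chosen after seeing the data. Counts limit RPL35B (822 footprints) and RPL22B (1078) most.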
